A study of Mus musculus with 4 samples.

Results

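The genes described here are 10 components of the Notch pathway: the receptors *Notch1*, *Notch2* and *Notch3*, the ligands *Dll1*, *Dll3* and *Jag1*, and the basic helix-loop-helix genes *Hes1*, *Hes5*, *Hes6* and *Hey1*. They were taken by symbol, measured values were not part of the rule, and all 10 were found among the 13577 genes of the table. RNA-Seq of nasal process (NP) tissues from E11.5 mouse embryos was examined in 4 libraries, 2 with a control title and 2 with a ca-*Acvr1* mutant title, where ca-*Acvr1* is a constitutively active form of the type I BMP receptor ACVR1. The kit primes on poly(A), so reads come from the last stretch of a transcript and longer transcripts do not collect more of them. Values are CPM, which puts the reads of a gene on a common library size.

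Per the study's methods, control embryos were ca-*Acvr1(A11)*+/+;*P0-Cre* and mutant embryos were ca-*Acvr1(A11)* fl/+;*P0-Cre*, of both sexes and on a mixed background, so that both groups carry *P0-Cre*. The transgene is driven by the CAG promoter and is switched on in neural crest derivatives by the Cre, and therefore not by design in the epithelium, endothelium or neural tissue that a nasal process can hold. The genotype entries of the labels run against the titles: the libraries titled control are entered with the transgene and those titled mutant with *P0-Cre* alone. The titles were used for the groups (control and mutant below), and should the genotype entries hold instead, every direction given turns around. The sources do not say whether a library came from 1 embryo or several, so p-values measure the spread between these libraries, which may in part be technical. *Xist* (231 and 178 CPM in control libraries, 298 and 287 CPM in mutant libraries) and the Y-linked *Ddx3y* (39.9 and 47.1 against 29.9 and 49.1 CPM), chosen after their values were seen, were both detected in all 4 libraries. Each library therefore holds RNA of both sexes, and so not of 1 embryo alone. *Xist* was higher in both mutant libraries (log2 fold change 0.53, unadjusted p = 0.0013, adjusted p = 0.103 from limma), and *Ddx3y* overlapped.

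Notch receptors are single-pass membrane proteins that are cut when a Delta or Jagged ligand on a neighboring cell pulls on them, and the freed intracellular domain enters the nucleus, where it joins the DNA-binding protein RBPJ and Mastermind-like coactivators to switch on *Hes* and *Hey* genes. These targets encode repressors that hold back proneural genes, so that a cell with much ligand keeps its neighbors as progenitors (lateral inhibition). In the embryonic head the pathway acts in the olfactory epithelium and forebrain, in blood vessels and their mural cells, and in neural crest derivatives.

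The depth was 1956831 and 2252586 reads in control replicates 1 and 2 and 2408827 and 2137027 reads in mutant replicates 1 and 2, so that 1 read was worth 0.511, 0.444, 0.415 and 0.468 CPM. The members rested on between 36 reads (*Dll3* in control replicate 1) and 665 reads (*Hes5* in mutant replicate 1), and none was at 0 in any library. By mean level they lay between the 52.0th percentile of the table (*Dll3*) and the 94.3rd (*Hes1*). All 10 passed the filter on low values, a mean above 1 CPM, and were among the 12462 genes tested.

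No member was called different between the groups. At an adjusted p under 0.05 (limma on log2(CPM + 1), Benjamini-Hochberg over all genes tested), 0 of 10 were called in either direction, beside 38 genes called higher (0.305%) and 74 called lower (0.594%) in mutant libraries. edgeR and DESeq2 on recovered whole reads also called 0 of 10. At an unadjusted p under 0.05 limma gave 2 members higher, *Hes5* and *Hey1*, and 0 lower, beside 5.42% of all genes higher and 4.12% lower; edgeR gave 2 members and DESeq2 0. The mutant values did not overlap the control values in 6 members that were higher (*Notch1*, *Dll1*, *Jag1*, *Hes5*, *Hes6* and *Hey1*) and in 1 that was lower (*Notch2*), beside 21.9% and 16.8% of all genes. The median log2 fold change of the members was 0.20, beside 0.03 over all genes tested, and the members ran from −0.29 (*Notch3*) to 0.39 (*Hey1*).

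**Figure D1:**
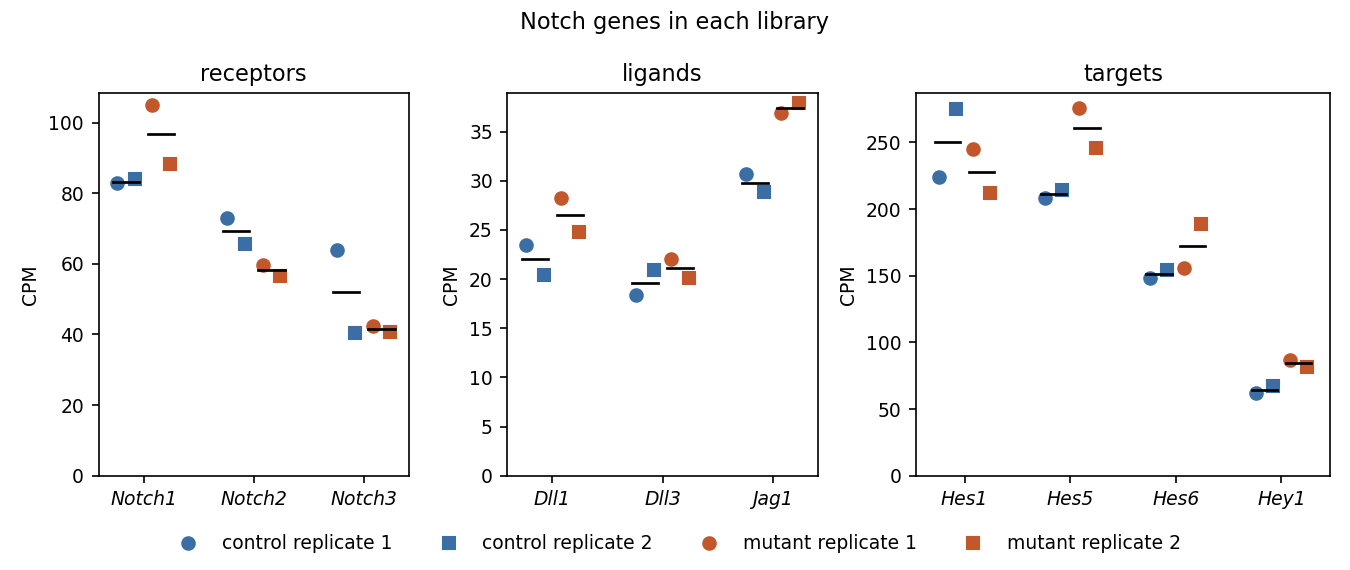
CPM (vertical axis, from 0, with its own scale in each panel) of the 10 Notch genes in the 4 libraries, by role; circles are replicate 1, squares replicate 2, and black lines the means of the 2 libraries of a group. The groups stand apart for *Jag1* (28.9 to 30.7 CPM against 36.9 to 37.9) and *Hey1* (61.8 to 67.0 against 81.9 to 87.2) and overlap for *Notch3*, *Dll3* and *Hes1*.

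Among the receptors, *Notch1*, the receptor of lateral inhibition in neural progenitors and of arterial endothelium, was at 82.8 and 83.9 CPM in control libraries and at 105 and 88.4 CPM in mutant libraries. Both mutant libraries lay above both controls, replicate 2 by less than the distance between the mutant replicates. The means were 83.3 ± 0.79 and 96.9 ± 12 CPM (SD, n = 2 each). On the log2 scale the difference was 0.21 (95% interval −0.12 to 0.54, adjusted p = 0.757 from limma), 0.08 without mutant replicate 1 and 0.34 without mutant replicate 2.

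*Notch2*, which shares ligands with *Notch1* and is broadly present in mesenchyme and epithelium, was at 73.1 and 65.7 CPM in control libraries and at 59.8 and 56.6 CPM in mutant libraries. It was the 1 member for which both mutant libraries lay below both controls. The means were 69.4 ± 5.21 and 58.2 ± 2.23 CPM (SD, n = 2 each), and the log2 fold change of −0.25 did not pass the test (95% interval −0.60 to 0.11, adjusted p = 0.716 from limma).

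*Notch3*, best known from pericytes and vascular smooth muscle, was at 63.9 and 40.4 CPM in control libraries and at 42.3 and 40.7 CPM in mutant libraries. Control replicate 1 was high and the other 3 libraries were close together, with control replicate 2 the lowest, so the groups overlapped. Its log2 fold change was −0.29 (95% interval −0.71 to 0.14, adjusted p = 0.734 from limma), and it turned to 0.04 when control replicate 1 was left out (−0.61 when replicate 2 was). In these fits, as in all fits without 1 library, the lone library of a group is assumed to vary like the other group.

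Within each library *Notch1* had the most reads of the 4 receptor genes, with *Notch4* counted in. Its share was 36.9% in control replicate 1 (exact Clopper-Pearson 95% interval 32.4 to 41.6), 42.4% in control replicate 2 (37.7 to 47.1), 49.2% in mutant replicate 1 (44.8 to 53.6) and 46.1% in mutant replicate 2 (41.2 to 51.1). These intervals cover counting error only. The share was higher in both mutant libraries than in both controls, the interval of control replicate 2 overlapped those of both mutant libraries, and that of control replicate 1 overlapped that of mutant replicate 2. The share of *Notch2* was 32.6% and 33.2% in control libraries and 27.9% and 29.5% in mutant libraries. The ratio of *Notch1* to *Notch2* CPM, which does not depend on library scaling, was 1.13 and 1.28 in control libraries and 1.76 and 1.56 in mutant libraries, without overlap. *Notch4*, the receptor of endothelial cells, made up 2.05% to 4.04% of these reads, from 9 to 18 reads a library. These shares and ratios were examined after the values of the genes had been seen, and they are given without a test. For 4 libraries in random order, 2 groups of 2 fail to overlap with a probability of 0.333.

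**Figure D2:**
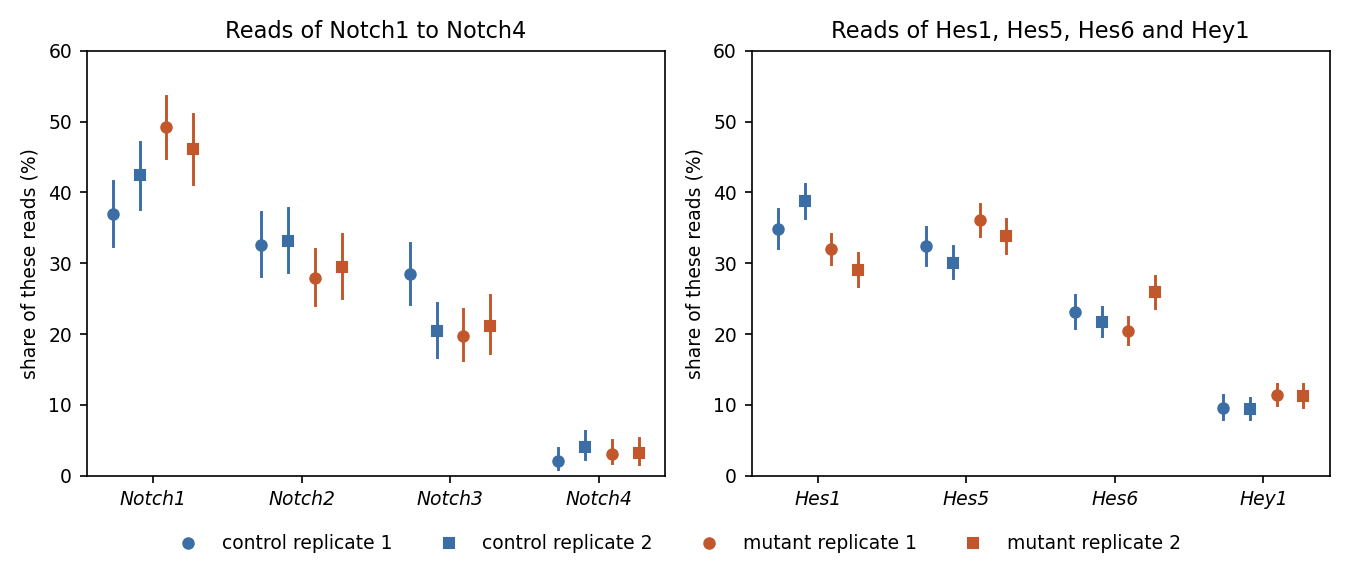
Share (%) of each gene among the reads of *Notch1* to *Notch4* (left) and of *Hes1*, *Hes5*, *Hes6* and *Hey1* (right) in each library, with exact 95% binomial intervals as vertical lines that cover counting error only. *Notch1* runs from 36.9% to 49.2%, and the shares of *Hes1* are lower in both mutant libraries (32.0% and 29.0%) than in the controls (34.9% and 38.8%).

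Of the ligands, *Dll1*, which activates Notch on neighboring cells and marks newly forming neurons, was at 23.5 and 20.4 CPM in control libraries and at 28.2 and 24.8 CPM in mutant libraries. The groups did not overlap, but the gap between the nearest libraries was smaller than the distance between replicates in either group. The log2 fold change was 0.26 (95% interval −0.22 to 0.74, adjusted p = 0.812 from limma), from 46, 46, 68 and 53 reads. Leaving out control replicate 2 gave 0.16 and mutant replicate 1 gave 0.17.

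*Dll3*, a divergent Delta protein that acts within its own cell and is thought to inhibit Notch rather than activate it, was at 18.4 and 20.9 CPM in control libraries and at 22.0 and 20.1 CPM in mutant libraries. The groups overlapped, and it had the lowest level of the 10 genes in both. Its log2 fold change was 0.10 (95% interval −0.41 to 0.61, adjusted p = 0.95 from limma). Leaving out control replicate 1 gave 0.01 and mutant replicate 1 gave 0.04, against 0.18 without control replicate 2 and 0.16 without mutant replicate 2.

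*Jag1*, the Jagged ligand of sensory epithelia, vessels and craniofacial tissue, was at 30.7 and 28.9 CPM in control libraries and at 36.9 and 37.9 CPM in mutant libraries. Replicates were close in both groups, and the mutant libraries were both higher. The means of 29.8 ± 1.28 and 37.4 ± 0.676 CPM (SD, n = 2 each) gave a log2 fold change of 0.32, which did not pass the test (95% interval −0.10 to 0.75, adjusted p = 0.688 from limma). Without any 1 of the 4 libraries it was between 0.28 and 0.36.

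The 3 ligands were the 3 lowest members in both groups, and each was below each receptor in every library. As reads of this assay do not grow with transcript length, CPM was compared between genes without a correction for length; how evenly different 3′ ends are captured was not tested. In control libraries the order from high to low was *Hes1*, *Hes5*, *Hes6*, *Notch1*, *Notch2*, *Hey1*, *Notch3*, *Jag1*, *Dll1* and *Dll3*. Neighbors whose control values overlapped were *Notch2* and *Hey1*, *Hey1* and *Notch3*, and *Dll1* and *Dll3*. In mutant libraries *Hes5* stood above *Hes1* and *Hey1* above *Notch2*, the rest of the order was the same, and no neighbors overlapped.

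Among the targets, *Hes1*, a repressor induced by Notch and by other signals in progenitors and mesenchyme, was at 224 and 275 CPM in control libraries and at 245 and 212 CPM in mutant libraries. The groups overlapped, with control replicate 2 the highest and mutant replicate 2 the lowest. The means were 250 ± 36.4 and 228 ± 23.3 CPM (SD, n = 2 each). On the log2 scale the difference was −0.13 (95% interval −0.42 to 0.17, adjusted p = 0.863 from limma). The log2 fold change was 0.02 without control replicate 2 and −0.02 without mutant replicate 2, against −0.27 and −0.23 without the other library of each group.

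*Hes5*, a target that depends closely on Notch in neural progenitors, was at 208 and 214 CPM in control libraries and at 276 and 246 CPM in mutant libraries. Both mutant libraries were higher, and the control replicates were closer to each other than the mutant replicates were. The means were 211 ± 4.23 and 261 ± 21.2 CPM (SD, n = 2 each), a ratio of 1.24. The log2 fold change of 0.30 had an interval just above 0 (95% interval 0.02 to 0.59, unadjusted p = 0.0377) but did not pass after adjustment over all genes (adjusted p = 0.481 from limma). The unadjusted p was 0.0598 with TMM or DESeq2 scaling, 0.103 from DESeq2, 0.0679 without control replicate 1, 0.27 without mutant replicate 1 and 0.0539 without mutant replicate 2. By unadjusted p, *Hes5* ranked 976 among the 12462 genes.

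*Hes5* (Entrez 15208) lies at chr4:154960923-154962371 on the plus strand of GRCm38 in GENCODE's annotation. The 250 bases before its start are shown because *Hes5* is a textbook RBPJ target and its groups did not overlap. The sequence is from RefSeq (GRCm38.p6), plus strand, chr4:154960673-154960922. Capitals mark the RBPJ core motif GTGGGAA, searched on both strands.
*Hes5*: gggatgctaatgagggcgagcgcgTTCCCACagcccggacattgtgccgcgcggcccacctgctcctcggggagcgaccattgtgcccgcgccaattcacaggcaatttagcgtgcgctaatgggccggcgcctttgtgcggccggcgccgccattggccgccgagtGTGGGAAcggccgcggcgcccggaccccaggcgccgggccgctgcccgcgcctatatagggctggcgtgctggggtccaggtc
The motif was found 2 times, on the minus strand with its first letter in this reading 226 bases before the start and on the plus strand 83 bases before it. RefSeq windows were matched for 8 of the 10 members (not *Hes1* and *Hey1*), with 10 windows in all, and among these 10 the motif was found in the *Hes5* window. Of 32851 windows of this length over all genes, 5.42% hold it and 0.161% hold it 2 or more times. The match describes the letters of these windows and no binding was measured here.

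*Hes6*, grouped with the targets by family and known to oppose *Hes1* and promote neuronal differentiation, was at 148 and 154 CPM in control libraries and at 156 and 189 CPM in mutant libraries. The groups did not overlap, but mutant replicate 1 was near the controls and only replicate 2 was well above them. The log2 fold change was 0.18 (95% interval −0.12 to 0.49, adjusted p = 0.774 from limma), 0.05 without mutant replicate 2 and 0.32 without mutant replicate 1.

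*Hey1* (Entrez 15213, chr3:8663359-8667256, minus strand of GRCm38), a target known from arteries, heart and neural progenitors, was at 61.8 and 67.0 CPM in control libraries and at 87.2 and 81.9 CPM in mutant libraries. Both mutant libraries were higher than both controls by more than the distance between replicates. The means of 64.4 ± 3.68 and 84.5 ± 3.74 CPM (SD, n = 2 each) stood in a ratio of 1.31, the highest of the 10 members. The log2 fold change was 0.39 (95% interval 0.05 to 0.73, unadjusted p = 0.0274), and it did not pass after adjustment (adjusted p = 0.433 from limma). Its unadjusted p was 0.131 from DESeq2, 0.0938 without control replicate 1, 0.143 without mutant replicate 1 and 0.0635 without mutant replicate 2. Over the 13 alternative settings it stayed between 0.33 and 0.44 and its adjusted p between 0.347 and 1.

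**Figure D3:**
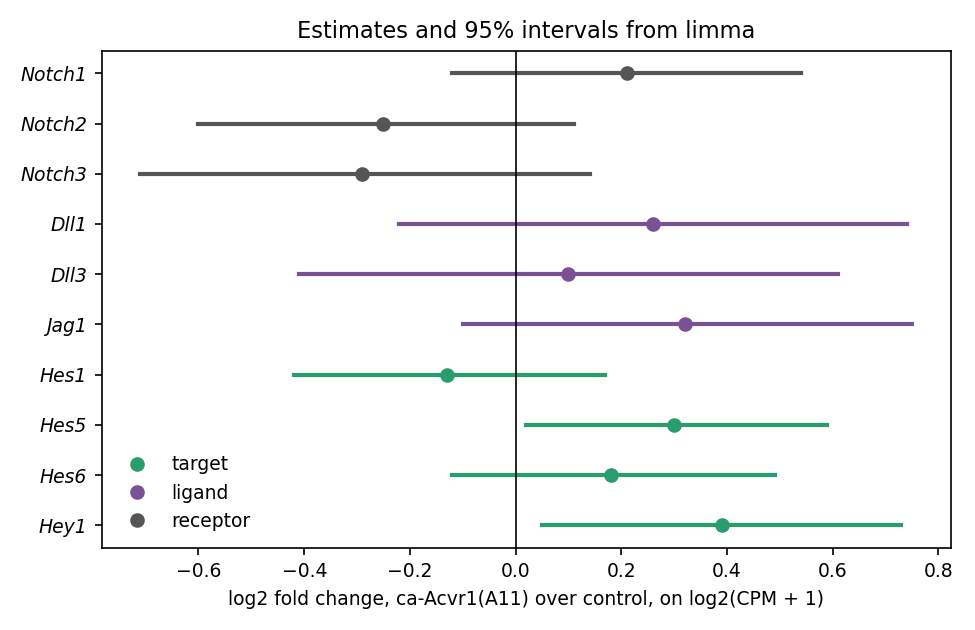
Log2 fold change (points, horizontal axis, ca-*Acvr1(A11)* over control on log2(CPM + 1)) and 95% interval (lines) of each member from limma, colored by role. The intervals of *Hes5* (0.02 to 0.59) and *Hey1* (0.05 to 0.73) lie above 0 before adjustment over all genes, and the other 8 include 0.

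The balance among the 4 target genes was compared within libraries. The ratio of *Hes5* to *Hes1* CPM was 0.929 and 0.777 in control libraries and 1.13 and 1.16 in mutant libraries. The ratio of *Hey1* to *Hes1* was 0.276 and 0.244 in control libraries and 0.357 and 0.387 in mutant libraries. Neither ratio overlapped between groups, and both moved through *Hes5* and *Hey1* being higher and *Hes1* being lower on average. The share of *Hey1* among the reads of the 4 genes was 9.63% and 9.44% in control libraries and 11.4% and 11.2% in mutant libraries. The exact 95% intervals for counting error overlapped (8.06 to 11.4 and 8.05 to 11, against 10 to 13 and 9.72 to 12.9). These ratios too were chosen after the values were seen and were not tested. Libraries in random order would leave such a ratio without overlap with a probability of 0.333.

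Precision was limited by 2 libraries a group. The upper ends of the intervals of the members correspond to ratios of 1.08 (*Notch2*) to 1.68 (*Jag1*) and the lower ends to ratios of 0.61 (*Notch3*) to 1.03 (*Hey1*). GENCODE has a gene on the opposite strand over the last exon of 3 members, *Notch1*, *Notch3* and *Hes5*. Whether counting used the strand is not given in the sources used here, and for these 3 genes reads of the partner cannot be told apart from their own.

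A wider list of 58 Notch pathway genes, apart from the 10 members, had 52 in the table, all tested. Of these, 1 was called higher and 0 lower, 7 were higher and 1 lower at an unadjusted p under 0.05 (5.42% and 4.12% of all genes tested), and 16 were higher and 6 lower without overlap (21.9% and 16.8% of all genes tested). The median log2 fold change of the 52 was 0.07. The gene called was *Dlk1*, a membrane protein related to Delta that lacks the domain by which Delta proteins activate Notch.

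*Dlk1* was at 938 and 549 CPM in control libraries and at 1214 and 1117 CPM in mutant libraries. Control replicate 2 was low and the other 3 libraries were closer together. It rose by a log2 fold change of 0.70 (95% interval 0.35 to 1.05, adjusted p = 0.0437 from limma). The value was 0.31 without control replicate 2, 1.08 without control replicate 1 and 0.64 without mutant replicate 1. *Dlk1* was called in 7 of 13 alternative settings, some of them fits with a lone library in a group. It was called in neither edgeR (adjusted p = 0.0661) nor DESeq2 (adjusted p = 1).

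Next by unadjusted p among the genes with higher values were *Spen*, a corepressor that binds RBPJ, *Kat2b*, an acetyltransferase of the coactivator complex, and *Dtx4*, a Deltex ubiquitin ligase. *Spen* was at 44.5 and 34.2 CPM in control libraries and at 60.6 and 57.6 CPM in mutant ones (estimate on the log2 scale 0.59, adjusted p = 0.216 from limma). *Kat2b* was at 6.13 and 7.99 against 12.0 and 15.0 CPM (log2 fold change 0.85, adjusted p = 0.338 from limma). *Dtx4* was at 101 and 74.6 against 110 and 125 CPM (log2 fold change 0.43, adjusted p = 0.361 from limma). The groups did not overlap for these 3 genes, and none passed the test with all libraries. Without control replicate 1, *Spen* was at 0.77 and *Dtx4* at 0.65, and without control replicate 2 they were at 0.40 and 0.21.

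*Lfng*, a glycosyltransferase that tunes which ligands a receptor answers to, was named after its values were seen. It was at 16.9 and 13.8 CPM in control libraries and at 22.8 and 23.9 CPM in mutant libraries, without overlap (log2 fold change 0.58, adjusted p = 0.446 from limma). The 5 glycosyltransferases tested, *Lfng* with them, all had log2 fold changes above 0, from 0.04 to 0.58, with a median of 0.18.

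On the other side, the smallest unadjusted p values were those of *Heyl*, *Adam10* and *Rbpj*. *Heyl*, a target known from mural cells and muscle, was at 7.15 and 4 CPM in control libraries and at 2.08 and 2.34 CPM in mutant ones (estimate on the log2 scale −0.99, adjusted p = 0.445 from limma). Its values rest on 14 and 9 reads in control and 5 and 5 reads in mutant libraries. With the filter of a mean above 5 CPM it was left out. *Adam10*, the protease of the first ligand-dependent cut, was at 97.1 and 114 against 94.2 and 80.5 CPM (−0.27, adjusted p = 0.658). *Rbpj* itself was at 89.4 and 79.5 against 78.9 and 61.8 CPM (−0.27, adjusted p = 0.685). None of the 3 overlapped between groups, and for *Rbpj* the nearest libraries were 79.5 and 78.9 CPM. Its estimate was −0.09 without mutant replicate 2 and −0.44 without mutant replicate 1. Without control replicate 1 that of *Heyl* was −0.64, and that of *Adam10* was −0.16 without control replicate 2 or mutant replicate 2.

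The 5 most abundant genes of the wider list were *Dlk1* (mean 954 CPM over the 4 libraries), the corepressor *Ncor1* (567), the RBPJ partner *Snw1* (307) and the acetyltransferases *Crebbp* (238) and *Ep300* (160). Apart from *Dlk1* their log2 fold changes were 0.26, 0.14, 0.18 and 0.15, and none passed the test with all libraries. Without control replicate 2, *Ncor1* was at 0.03, *Crebbp* turned to −0.05 and *Ep300* was at 0.07. Without control replicate 1 they were at 0.50, 0.42 and 0.23. By role, the medians ran from −0.18 in the other targets (4 genes) and −0.16 in receptor cleavage (9 genes) to 0.26 in corepressors (7 genes) and 0.46 in ligands (5 genes). Of the ligands, *Dll4*, the ligand of arterial endothelium, was at 4.09 and 5.33 against 2.49 and 2.81 CPM. The *Dll4* values rest on 8 and 12 against 6 and 6 reads (log2 fold change −0.64, adjusted p = 0.701 from limma).

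**Figure D4:**
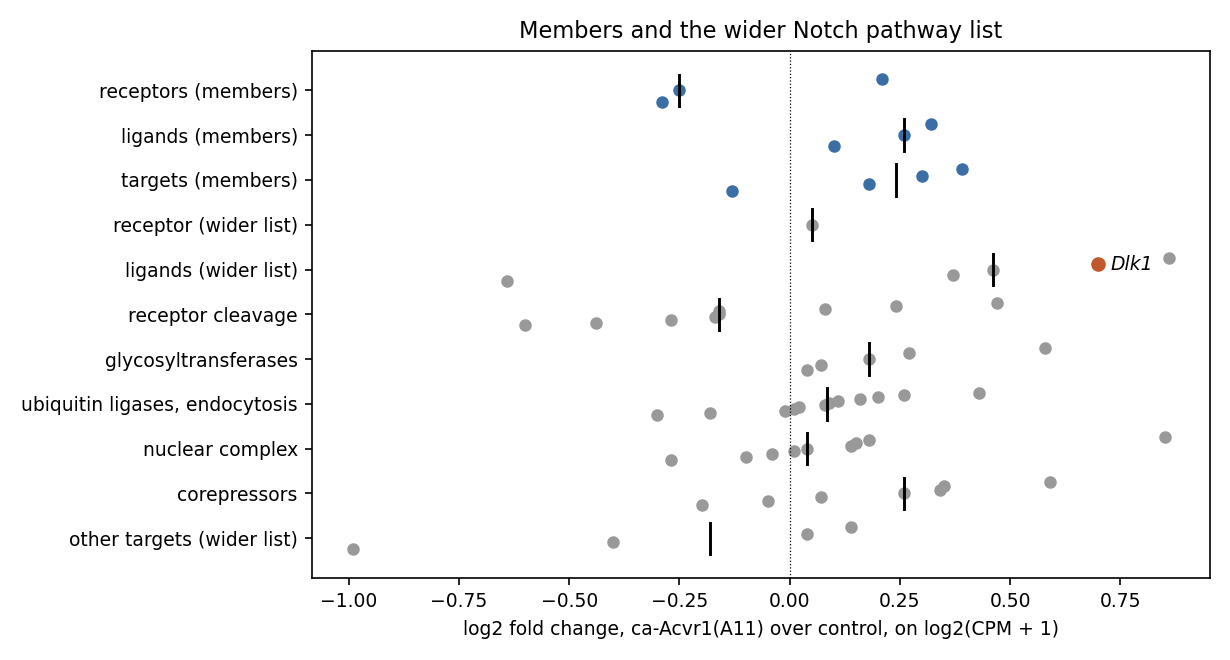
Log2 fold change (horizontal axis, ca-*Acvr1(A11)* over control on log2(CPM + 1)) of the 10 members (blue) and of the 52 genes of the wider Notch pathway list (grey) by role, with the median of each role as a black line. *Dlk1* (orange, 0.70) is the gene called, and the other points spread on both sides of 0, from −0.99 (*Heyl*) to 0.86 (*Jag2*).

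Markers of the cell types in which these genes act were compared too, with the groups apart in some lists and overlapping in others. Beside the counts for these lists, 0.305% of all genes tested were called higher and 0.594% lower, 5.42% were higher and 4.12% lower at an unadjusted p under 0.05, and 21.9% were higher and 16.8% lower without overlap. In bulk tissue, fewer cells of a type and less RNA per cell cannot be told apart. Neural progenitor markers, the setting of *Notch1* and *Hes5*, had log2 fold changes above 0 in 10 of 10 genes (median 0.45), with 1 called higher, 0 lower, and 7 higher without overlap. Their summed level was 1983 and 1567 CPM in control libraries and 2495 and 2373 CPM in mutant libraries. The most abundant was *Sox2* at 455 and 429 against 616 and 633 CPM (adjusted p = 0.0803 from limma), and the gene called was *Six3* at 474 and 289 against 611 and 601 CPM (log2 fold change 0.71, adjusted p = 0.0278 from limma). *Six3* was at 0.35 without control replicate 2 (adjusted p = 0.372), 1.07 without control replicate 1 and 0.70 without mutant replicate 1 (adjusted p = 0.0518), and DESeq2 did not call it (adjusted p = 1). The list had 6 genes called without control replicate 1 and 3 with the replicate block, and *Sox2* was called in both. *Lhx2*, next in level, was at 227 and 168 against 265 and 231 CPM.

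The ratio of *Hes5* to *Sox2* was 0.457 and 0.498 in control libraries and 0.448 and 0.389 in mutant libraries, and *Notch1* to *Sox2* gave 0.182 and 0.195 against 0.171 and 0.140. Such ratios depend on the marker. Over the 10 progenitor markers, that of *Hes5* was lower in both mutant libraries for 2 and overlapped for 8. That of *Notch1* was lower for 5 and overlapped for 5. All 10 markers had estimates above 0, and the share of all genes with such ratios was not computed. *Hes5* and *Notch1* CPM themselves were higher in both mutant libraries. The part of the neural progenitor level in the *Hes5* and *Notch1* values was not tested.

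Neurogenic markers, the setting of *Dll1*, *Dll3* and *Hes6*, were above 0 in 12 of 13 genes (median log2 fold change 0.16), with 0 called by limma, edgeR or DESeq2 (1 higher without control replicate 1), 4 higher at an unadjusted p under 0.05, and 7 higher without overlap. Their summed level was 797 and 841 CPM in control libraries and 930 and 1045 CPM in mutant libraries, led by *Tubb3* (mean 216 CPM), *Elavl4* (198) and *Stmn2* (154). The part of the neurogenic markers in the *Dll1*, *Dll3* and *Hes6* values was not tested.

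Epithelial markers were above 0 in 9 of 11 genes (median log2 fold change 0.52), with 2 called higher and 7 higher without overlap, and a summed level of 279 and 261 CPM in control libraries and 430 and 394 CPM in mutant libraries. The genes called were *Cdh1*, the most abundant, at 77.2 and 59.5 against 121 and 114 CPM (adjusted p = 0.0145 from limma) and *Epcam* at 59.3 and 70.6 against 110 and 103 CPM (adjusted p = 0.0264 from limma), and *Cldn6* followed in level (mean 38.3 CPM). *Cdh1* was not called without control replicate 2 (log2 fold change 0.60) or without mutant replicate 1 (0.74), nor *Epcam* without mutant replicate 1 (0.67) or 2 (0.76), and DESeq2 called neither. Relative to *Epcam*, *Jag1* was 0.517 and 0.409 in control libraries and 0.335 and 0.367 in mutant libraries, and *Hey1* was 1.04 and 0.95 against 0.789 and 0.792. Other markers of the list gave other results: over the 11, the ratio of *Jag1* was lower in both mutant libraries for 6, higher for 1 and overlapped for 4, and that of *Hey1* was lower for 4, higher for 1 and overlapped for 6. How many of all genes give such ratios was not computed. The CPM of *Jag1* and of *Hey1* was higher. The part of the epithelial markers in the *Jag1* and *Hey1* values was not tested.

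Markers of mesenchyme from cranial neural crest cells had log2 fold changes below 0 in 12 of 12 genes (median −0.78), with 7 called lower and 10 lower without overlap. Their summed level was 2086 and 2255 CPM in control libraries and 1392 and 1380 CPM in mutant libraries. Among the genes called were *Prrx1*, *Prrx2*, *Alx1*, *Alx4*, *Pax3* and *Twist1*, with log2 fold changes from −1.42 (*Prrx2*) to −0.78 (*Twist1*), and the most abundant were *Sox9* (mean 587 CPM), *Tfap2b* (342) and *Alx1* (185). *Twist1* was at −0.35 without control replicate 2 (adjusted p = 0.68) and −1.20 without control replicate 1, and it was not called with a pseudocount of 0.1, with a mean above 5 CPM or by DESeq2. The list had 6 to 9 genes called lower in the fits without 1 library, 7 by edgeR and 5 by DESeq2. *Prrx1*, *Prrx2*, *Alx1*, *Alx4* and *Pax3* were each called in all 13 alternative settings. *Notch2* was lower on average by 16.1 percent, and its ratio to *Prrx1* was 0.326 and 0.273 in control libraries and 0.632 and 0.524 in mutant libraries. Over the 12 markers the ratio of *Notch2* was higher in both mutant libraries for 8 and overlapped for 4. That of *Notch3* was higher for 6 and overlapped for 6. As all 12 markers had estimates below 0, such ratios also rise for a gene that changed little. The share of all genes with such ratios was not computed. The part of the mesenchymal markers in the *Notch2* and *Notch3* values was not tested.

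Markers of vessels were of mixed sign. The endothelial list had 5 of 12 genes above 0 (median log2 fold change −0.10), with 0 called by limma, edgeR or DESeq2 and 0 at an unadjusted p under 0.05. Its summed level was 256 and 261 CPM in control libraries and 257 and 246 CPM in mutant libraries, led by *Kdr* (mean 49.8 CPM), *Cdh5* (32.0) and *Esam* (31.3). Mural markers, the setting of *Notch3* and *Heyl*, were low: 7 of 8 were in the table and 6 tested, with 0 called by limma, edgeR or DESeq2 (1 higher and 1 lower at an unadjusted p under 0.05), and their summed level was 13.3 and 15.1 against 17.0 and 18.2 CPM, led by *Abcc9* (4.15), *Acta2* (3.92) and *Tagln* (2.58). The pericyte marker *Cspg4* was at 0 in control replicate 1 and mutant replicate 2. It had 2 reads in control replicate 2 and 4 in mutant replicate 1, and was not tested. No marker of this list passed 6.22 CPM, and *Notch3* itself was at 40.4 to 63.9 CPM. How evenly the 3′ ends of these genes are captured is not known. The part of mural cells in the *Notch3* values was not tested.

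Of the remaining lists, macrophage markers were above 0 in 9 of 9 genes (median log2 fold change 0.60), with *Cx3cr1* and *Mrc1* called higher. Their summed level was 52.1 and 52.8 CPM in control libraries and 87.2 and 129 CPM in mutant libraries, led by *Cx3cr1* (33.1), *Mrc1* (11.3) and *C1qb* (8.11), and *C1qa* was at 0 in control replicate 1. *Cx3cr1* was not called without mutant replicate 2 (log2 fold change 0.85, adjusted p = 0.266), and *Mrc1* not without control replicate 1 (1.04), mutant replicate 1 (1.48) or mutant replicate 2 (1.20); DESeq2 called neither. Glial, erythroid and muscle lists had 0 genes called by limma, edgeR or DESeq2 among 4, 5 and 3 tested. At an unadjusted p under 0.05 the glial list had 2 lower and the others 0, and without control replicate 1 the glial and erythroid lists each had 1 called lower (glial 2 with the replicate block). Glial summed levels were 89.4 and 135 against 95.1 and 130 CPM, most of it *Fabp7* (mean 96.7 CPM), which is also in the neural progenitor list. The glial median log2 fold change was −0.82, and the 2 genes lower at an unadjusted p under 0.05 did not overlap: *Sox10* at 9.71 and 7.99 against 2.08 and 3.28 CPM (−1.44, adjusted p = 0.0926) and *Foxd3* at 3.07 and 7.99 against 1.66 and 0.468 CPM (−1.61, adjusted p = 0.178), the latter named after its values were seen. Erythroid summed levels were 7007 and 8468 against 6694 and 7186 CPM, led by *Hbb-y*, and muscle summed levels were 5.62 and 5.77 against 7.06 and 9.36 CPM, led by *Ttn*. The part of these levels in the values of the Notch genes was not tested.

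**Figure D5:**
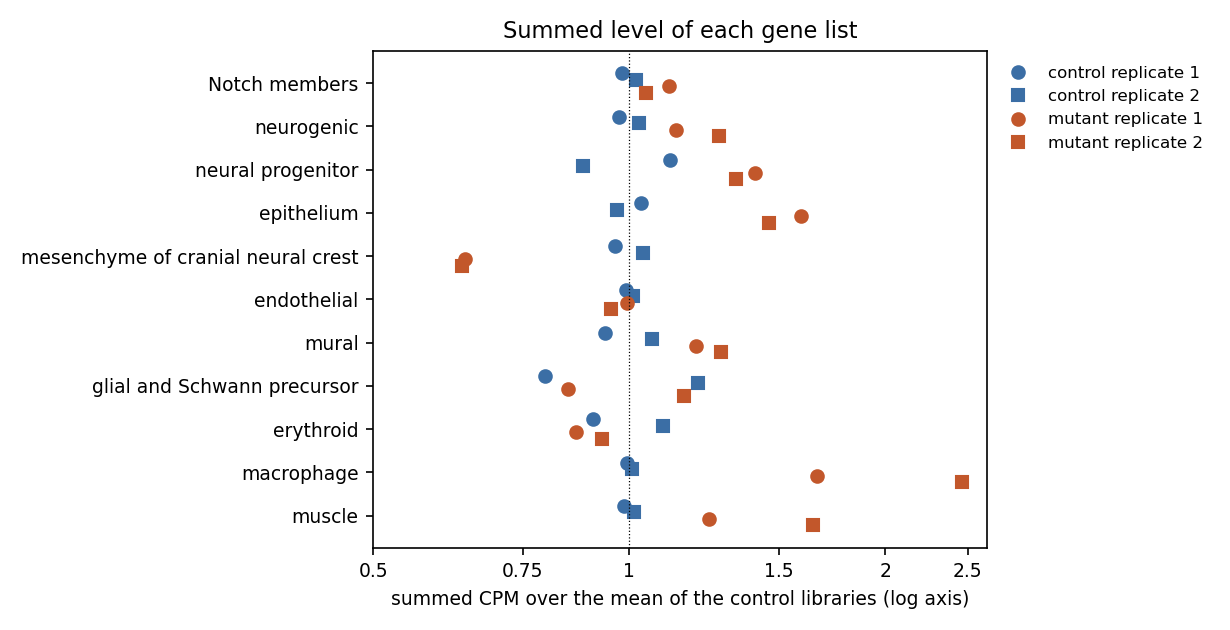
Summed CPM of each marker list and of the 10 Notch genes in each library, divided by the mean of the control libraries (horizontal log axis; blue control, orange mutant; circles replicate 1, squares replicate 2). The Notch genes sum to 934 and 970 CPM in control libraries and 1059 and 997 CPM in mutant libraries, while epithelial and neural progenitor sums lie to the right and the mesenchymal sum to the left in both mutant libraries.

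The labels were checked with *Acvr1* and with genes known to answer BMP signaling. *Acvr1* was at 21.5 and 23.1 CPM in control libraries and at 24.1 and 12.6 CPM in mutant libraries, an overlap. The transgene joins *ACVR1* to an EGFP unit, and whether its 3′ reads count toward *Acvr1* is not given in the sources used here, so the gene does not settle the groups. Of the inhibitors of differentiation, *Id1* was at 106 and 202 against 92.6 and 115 CPM, *Id2* at 406 and 714 against 323 and 407 CPM, *Id3* at 378 and 489 against 351 and 334 CPM, and *Id4* at 147 and 182 against 238 and 215 CPM. *Smad6* (38.3 and 44.8 against 28.2 and 30.9 CPM) and *Smad7* (41.9 and 55.9 against 32.0 and 34.2 CPM) were lower in both libraries titled mutant, and *Smad9*, *Bambi* and *Atoh8* overlapped. Of the 10 genes 0 were called by limma, edgeR or DESeq2. At an unadjusted p under 0.05 from limma, 1 was higher (*Id4*) and 5 were lower, beside 5.42% and 4.12% of all genes tested. The 5 were *Id1*, *Id2*, *Id3*, *Smad6* and *Smad7*. An active BMP receptor would be expected to raise them, so their direction runs against the titles. As none was called, these readouts do not settle the groups. Without control replicate 1, the log2 fold changes of *Id1*, *Id2* and *Id3* were −0.96, −0.98 and −0.51. Without control replicate 2 they were −0.03, −0.16 and −0.14, and that of *Id4* was 0.62. *Id2* was at −0.73 without mutant replicate 2, and it was called lower with the replicate block (−0.57). The glycolysis genes *Aldoa* and *Aldoc*, chosen after their values were seen, were lower in both libraries titled mutant as listed (log2 fold changes −1.31 and −1.20, adjusted p = 1.44e-06 and 0.358 from limma). Their listed values in both mutant libraries are not whole numbers of reads. To make such values whole, a whole number of CPM was added or taken away. For *Aldoa*, 300 and 400 CPM were added in mutant replicates 1 and 2. With these shifted values the log2 fold changes were 0.30 and 1.06 (adjusted p = 0.517 and 0.454 from limma). *Aldoa* and *Aldoc* therefore do not settle the titles either. *Pdgfra* and *Pdgfrb*, named after their values were seen, also hold values that are not whole. Both were called lower in libraries titled mutant as listed (−2.60 and −1.55) and with shifted values (−1.45 and −1.01).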

How the data were processed

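The authors deposited CPM values for 13577 genes in 4 columns, 1 per library, made with Lexogen's QuantSeq 3′ kit on the Illumina platform. The submitters' processing notes name mm10, STAR, featureCounts 1.6.4 and DESeq2 without saying what each did. The scaling tool and any filter on low counts are not given in the sources used here. Whole reads were recovered from the step between values: 99.98%, 99.94%, 99.87% and 99.89% of values were whole within 0.02 reads. The 43 values that were not lie in 22 genes, none of them a Notch member.

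Groups were tested with limma 3.58.1 (R 4.3.3) on log2(CPM + 1), with a mean-variance trend, for genes with a mean above 1 CPM, and Benjamini-Hochberg adjustment over 12462 genes at 0.05. Since a pseudocount is added, fold changes of low genes are understated. On the recovered reads, edgeR 4.0.16 (quasi-likelihood) called 39 genes higher and 92 lower, and DESeq2 1.42.0 called 8 higher and 31 lower. For the 43 values that were not whole, these 2 tests used the listed value rounded to the nearest read, without the shifts. Tables and intervals were made with Python 3.11.15, pandas 2.3.3, scipy 1.17.1 and matplotlib 3.10.9. The fitting code was tested on simulated data with known changes. Alternatives were a pseudocount of 0.1, no filter, a mean above 5 CPM, TMM and DESeq2 scaling, and a replicate block. The others were both count tests, shifted whole-read values, and each library left out. In the shifted values, 42 listed values were made whole by adding or taking away a whole number of CPM.

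Genes named were all 10 members; of the wider pathway list each gene called, the 3 smallest unadjusted p values in each direction and the 5 highest means; of each marker list each gene called and the 3 highest means; and *Acvr1* with BMP readouts. Some genes of the marker lists, 1 of them called, count in the list totals and are not reported here by themselves. The members and lists were chosen with earlier results of these data known. Coordinates are from GENCODE vM21 (GRCm38). Of the listed genes, *Dlk2*, *Aph1c*, *Tle2*, *Hes2*, *Hes3* and *Hes7* were not analysed here, nor were *Myh11*, *Erbb3*, *Hba-a1*, *Hba-a2*, *Hbb-bt*, *Myod1*, *Myog* and *Acta1*. For the glial list, 6 genes were written and 4 were in the table, so *Erbb3* is not the only one left out.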

Additional observations from a re-analysis of the deposited data

How the results depend on the processing

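Over the 13 alternatives, 0 of the 10 Notch members were called in any, and the smallest adjusted p was 0.305. Of 130 alternative log2 fold changes, 128 had the sign reported. The exceptions were *Notch3*, from −0.61 to 0.04 over the fits without 1 library, and *Hes1*, from −0.27 to 0.02; the positive values came without control replicate 1 for *Notch3* and without control replicate 2 for *Hes1*. The median of the members was between 0.13 (without mutant replicate 1) and 0.23 over the fits without 1 library.

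Genes called higher numbered 38 and genes called lower 74. With 1 library left out they were 32 to 241 and 56 to 221, the highest counts both without control replicate 1, and 61 were called higher without control replicate 2. DESeq2 called 8 and 31. Of the wider pathway list, 1 gene was called, against 0 with a pseudocount of 0.1, a mean above 5 CPM, edgeR or DESeq2, and 1 to 5 without 1 library. The 5 without control replicate 1 were *Dlk1*, *Dtx4*, *Ncor1* and *Spen* higher and *Hdac1* lower (−0.90). The 1 without control replicate 2 (1.04) and without mutant replicate 1 (0.79) was *Hdac1* higher, and the 1 without mutant replicate 2 was *Dlk1*. The cause was not tested. In a fit without 1 library, the lone library of a group is assumed to vary like the other group. Calls from such fits therefore hold no spread of that group.

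With the replicate block, 97 genes were called higher and 132 lower, and 0 members. Same-numbered libraries deviated together across 6568 genes with a correlation of 0.15, but 2 pairs do not establish that the numbers pair the libraries.

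Groups of 2 libraries limit the precision, and *Dll1* and *Dll3* rest on 36 to 68 reads a library.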

Other observations

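*Hdac1*, a corepressor gene of the wider pathway list singled out after its values were seen, was at 38.8 CPM in control replicate 1, 151 CPM in control replicate 2, 48.6 CPM in mutant replicate 1 and 134 CPM in mutant replicate 2. It was low in both first replicates and high in both second replicates, and its groups overlapped (log2 fold change 0.07, adjusted p = 0.977 from limma). The estimate was −0.90 without control replicate 1, 1.04 without control replicate 2 and 0.79 without mutant replicate 1.

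*Jag2*, the ligand with the highest log2 fold change of the wider list (0.86, 95% interval −0.24 to 1.95), was at 1.02 and 0.444 CPM in control libraries and at 1.25 and 3.28 CPM in mutant libraries, which is 2, 1, 3 and 7 reads. *Helt* was at 9.71 CPM in control replicate 1 and at 4.44, 5.40 and 4.21 CPM in the other 3 libraries.

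The 43 listed values that are not whole numbers of reads lie in 22 genes, 32 of them in mutant libraries and 11 in control libraries. None of these genes is a Notch member or in another list used here. Of the 43, 42 become whole within 0.0005 reads when a whole number of CPM is added or taken away, over 118 numbers tried; at most 5.1 such matches would be expected by chance. For *Slc2a1* the numbers were 300 taken from each control value (538 and 477 CPM) and 200 added to each mutant value (98.5 and 89.7 CPM), and for *Aldoa* 300 and 400 added to the mutant values (172 and 168 CPM).

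As listed, 8 of the 22 genes were called lower and 0 higher by limma. With the whole-read values made by these shifts, 2 were called lower and 0 higher. The log2 fold change went from −2.42 to 0.52 for *Slc2a1*, from −1.31 to 0.30 for *Aldoa*, from −1.30 to 0.69 for *Hk2* and from −1.16 to 0.06 for *Pkm*. The 2 genes still called lower were *Pdgfra* (−2.60 as listed, −1.45 shifted) and *Pdgfrb* (−1.55 as listed, −1.01 shifted). All of these genes were named after their values were seen. Over all genes, 64 were called lower with the shifted values against 74 as listed, and 38 higher in both. How the listed values came about was not tested.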
